A study of Mus musculus with 6 samples.

Results

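Chemokines and chemokine receptors were examined as a set of 36 genes, 27 encoding ligands and 9 encoding receptors, in RNA from mouse livers after carbon tetrachloride (CCl4). The members were listed by name, and each of the 36 names matched 1 row of the 55802 rows of the deposited gene count table. All libraries came from liver of WT (wild-type) mice, and the series' design text gives the strain as C57BL/6. The control group was treated with oil (3 libraries) and the other group with CCl4 (3 libraries), a hepatotoxin that liver cells metabolise to a radical and that is a standard means of provoking fibrosis in rodents. The labels give no dose, duration, age or sex. They also leave unstated whether the 3 livers of each group were 3 different mice, and each p-value therefore measures the spread between these libraries, which may be partly technical.

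Chemokines are small secreted proteins, named CC, CXC, XC or CX3C after the spacing of their first cysteines, that guide leukocytes along gradients by binding receptors coupled to inhibitory G proteins. Inflammatory chemokines such as CCL2 and CXCL1 are induced at sites of damage, while homeostatic ones such as CXCL12 and CXCL13 position cells in resting tissue. In injured liver, CCR2 is known for bringing in blood monocytes, CXCR2 for neutrophils, CX3CR1 for the survival of monocyte-derived macrophages, and CXCR3 and CXCR6 for T cells and natural killer cells.

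Library totals ran from 18929972 to 20042731 counts, so that 1 count was worth 0.0491 to 0.054 CPM (counts per 1000000, relative to the library size scaled by TMM), and a count of 0 allows a level of up to 0.147 to 0.162 CPM (3 counts, per library, counting error only). A mean of 1 CPM in either group was reached by 25 of the 36 members, 17 ligands and 8 receptors. The filter on low counts, edgeR's filterByExpr, was passed by 27 members, 18 ligands and all 9 receptors. Of these 27, Ccl3, Cxcl5 and Ccr1 had every control library under the filter level and passed through the CCl4 libraries alone, which are the libraries in which they were high. Ccl21a, Cxcr2, Cxcr3 and Cxcr4 had some controls under that level. Shares of the tested members are therefore a description and support nothing by themselves. The same holds for the shares of the gene lists below, where some genes also passed the filter through the CCl4 libraries alone. CCl4 replicate 3 lay apart from CCl4 replicates 1 and 2 on the second principal component (-27.2 against 14.2 and 13.8, 8.91% of the variance), and without it 12 members were called higher and 4 lower. Alb, which encodes serum albumin and marks hepatocytes, was abundant in every library at 68400 to 75600 CPM.

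The receptor genes that were called all rose in the CCl4 livers, while the ligands moved in both directions and several inflammatory ones gave no call. At an adjusted p under 0.05 in edgeR's quasi-likelihood test, named a call here, 11 of the 27 tested members were called higher (40.7%) and 4 lower (14.8%). Over all 15579 genes tested, 41.3% were called, 21.2% higher and 20.1% lower. The split over all genes depended on the scaling: 3303 higher and 3124 lower became 4103 and 2177 with upper quartile scaling, and 4824 and 1676 with library size alone, where the median gene stood at a log2 fold change of 0.15 in place of 0.00056. Among the receptors 5 of 9 were called, all of them higher, with a median log2 fold change of 1.65. Among the 18 tested ligands 6 were higher and 4 were lower (median 0.34). Control and CCl4 libraries were fully separated in CPM for 16 of the 27 tested members (59.3%), near the 54% of all genes tested. Unlabelled values in parentheses below are log2 fold changes of CCl4 over control.

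**Figure D1:**
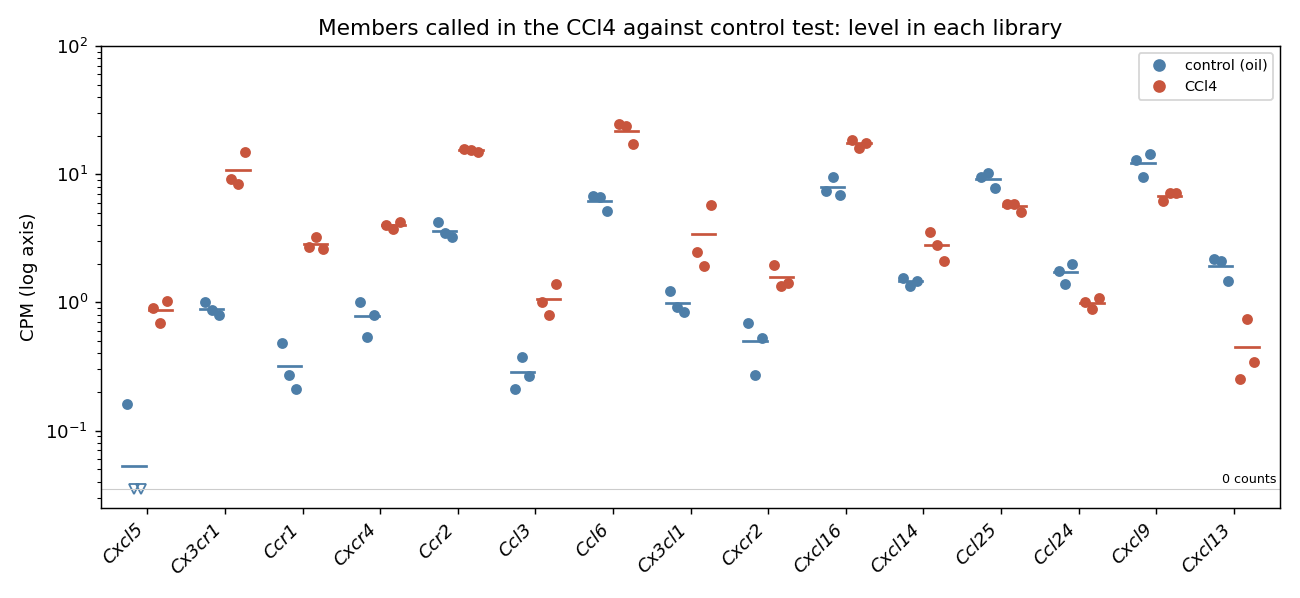
CPM on a log axis in each of the 6 libraries for the 15 members called in the CCl4 against control test, ordered by log2 fold change. Points are libraries, short lines are group means (n = 3), and open triangles mark libraries with 0 counts. For each of the 15 genes the groups stood apart, and Cxcl5 had 0 counts in 2 of 3 controls.

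Ccr2 (ENSMUSG00000049103), the CCL2 receptor that lets inflammatory monocytes leave the marrow and enter tissue, stood at 4.21, 3.46 and 3.23 CPM in control replicates 1, 2 and 3 and at 15.7, 15.5 and 15 in CCl4 replicates 1, 2 and 3. The 3 CCl4 libraries lay close together and well above every control. This was a log2 fold change of 2.08 (SE 0.12, adjusted p = 3.91e-06), or 4.23-fold, with a 95% interval of 3.52 to 5.07.

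Cx3cr1 (ENSMUSG00000052336), the receptor for fractalkine on patrolling monocytes and many tissue macrophages, had the highest fitted log2 fold change of the receptors. Its level was 1.01, 0.865 and 0.795 CPM in controls and 9.22, 8.36 and 14.9 in CCl4 livers. CCl4 replicate 3 was the highest, and the lowest CCl4 library was still far above the controls. This gave a log2 fold change of 3.6 (SE 0.28, adjusted p = 3.54e-05), or 12.1-fold (95% interval 7.75 to 18.9). The interval overlapped that of Ccr1, which follows, and exons of the uncharacterised gene Gm33858 overlap Cx3cr1 on the other strand.

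Ccr1 (ENSMUSG00000025804), a receptor of monocytes and neutrophils that binds CCL3, CCL5, CCL6 and CCL9, went from 9, 5 and 4 counts in controls to 54, 66 and 53 in CCl4 livers. In CPM these were 0.479, 0.27 and 0.212 against 2.72, 3.26 and 2.6, with the groups well apart. In log2 terms Ccr1 rose by 3.13 (SE 0.3, adjusted p = 6.4e-05). Cxcr4 (ENSMUSG00000045382), the receptor for CXCL12 that retains leukocytes and progenitors in tissue, rose from 1.01, 0.54 and 0.795 CPM to 4.03, 3.71 and 4.27 (2.35, SE 0.23, adjusted p = 7.35e-05). Every CCl4 library exceeded every control for Cxcr4. Cxcr2 (ENSMUSG00000026180), the main chemokine receptor of neutrophils, rose from 0.692, 0.27 and 0.53 CPM to 1.97, 1.34 and 1.42 (1.65, SE 0.35, adjusted p = 0.00423). Its control counts were low, between 5 and 13 a library, which leaves a wide interval of 1.83-fold to 5.37-fold.

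The other 4 receptors were not called. Cxcr3 (ENSMUSG00000050232), carried by activated T cells and natural killer cells, stood at 0.532, 0.54 and 0.795 CPM in controls and 1.16, 0.94 and 0.983 in CCl4 livers. The groups did not overlap, yet the adjusted p was 0.074 (log2 fold change 0.71, 95% interval 0.07 to 1.36), and Cxcr3 was called with upper quartile scaling (0.8, adjusted p = 0.0491) and with library size alone (0.86, 0.0363). Cxcr6 (ENSMUSG00000048521), the CXCL16 receptor of liver-resident T cells and natural killer T cells, stood at 1.85 ± 0.505 CPM (mean ± SD, n = 3, as below) in controls and 1.29 ± 0.268 in CCl4 livers (-0.52, interval -1.15 to 0.11, adjusted p = 0.167). Ccr7 (ENSMUSG00000037944), which takes dendritic cells and naive T cells towards CCL19 and CCL21, stood at 0.711 ± 0.299 and 0.562 ± 0.121 CPM (-0.34, interval -1.2 to 0.53, adjusted p = 0.521). These intervals include changes in both directions, so no difference was detected for Cxcr6 and Ccr7 at this depth and spread. That of Cxcr6 reached up only to 0.11.

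Ackr3 (ENSMUSG00000044337), an atypical receptor that binds and removes CXCL12 without G protein signalling, was read differently with and without 1 control. Its level was 2.77, 1.03 and 0.689 CPM in control replicates 1, 2 and 3 and 3.07, 2.62 and 3.1 in CCl4 livers. Control replicate 1 fell inside the CCl4 range, and the other 2 controls lay below it. The log2 fold change was 0.97 (SE 0.44, adjusted p = 0.118), and without control replicate 1 it was 1.76 (adjusted p = 0.00261). Limma-voom also called it, at 1.2 (adjusted p = 0.0406).

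**Figure D2:**
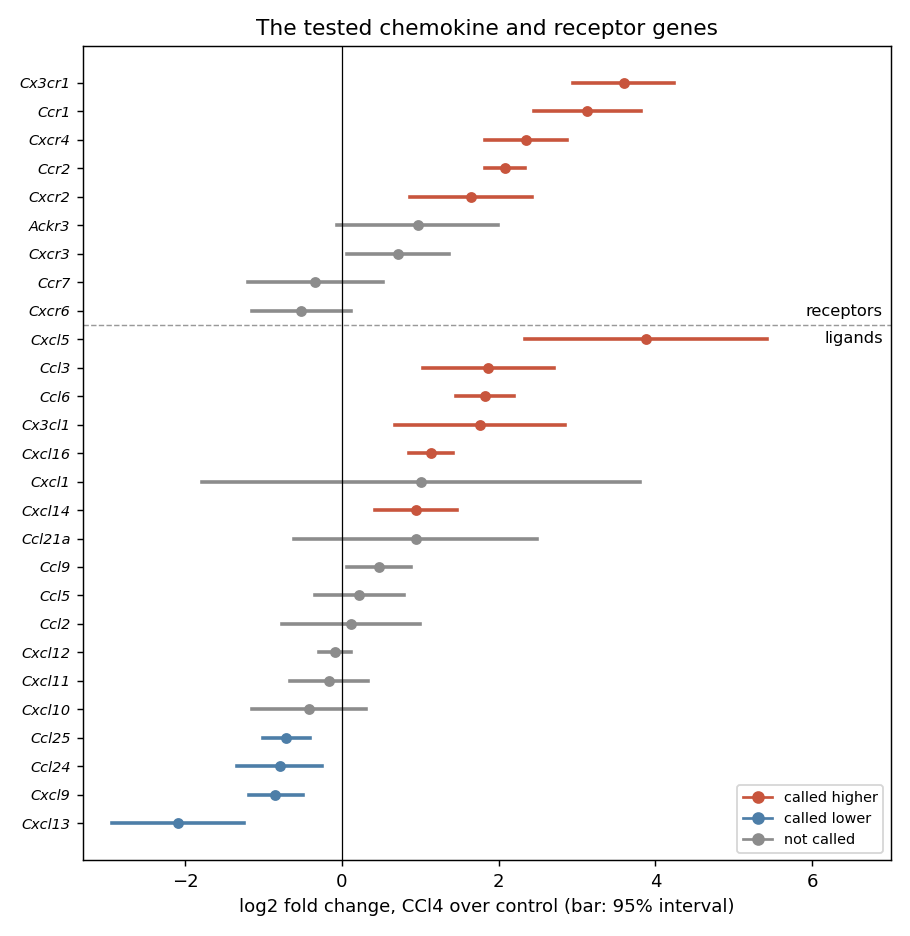
Log2 fold change of CCl4 over control (horizontal axis) for the 27 tested members, with bars for the 95% interval from edgeR's quasi-likelihood test, receptors above the dashed line and ligands below it. Red marks genes called higher, blue genes called lower and grey genes without a call. The 5 called receptors all lie right of 0, and the ligands spread from -2.09 for Cxcl13 to 3.88 for Cxcl5.

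Markers of the cells that carry these receptors were measured in the same libraries, from lists of cell type genes. The shares of all genes tested to set beside their counts are 21.2% higher and 20.1% lower. The summed CPM of 12 monocyte and macrophage markers was 200 to 232 in controls and 648 to 720 in CCl4 livers, a log2 ratio of 1.67, with 10 members higher and 0 lower by edgeR, DESeq2 and limma-voom (also 0 at an unadjusted p under 0.05). Among them Ctss, a lysosomal protease, rose by 2 and Lyz2, lysozyme, by 2.1. The sum of 10 neutrophil markers was 7.73 to 11.4 and 31.9 to 34.9 CPM (1.8), with 7 of 7 tested members higher, among them S100a8 (1.75) and Csf3r (1.44). Of these 7, Retnlg, Mmp8 and Ltf passed the filter on low counts through the CCl4 libraries alone, so that share supports nothing by itself. Ly6g, a defining neutrophil marker, was at 0 counts in all controls and at 4, 1 and 0 in CCl4 livers, too low to be tested. In whole liver, more cells of a type and more RNA per cell cannot be told apart, and the part of these cells in the receptor values was not tested. Cx3cr1 and Ccr1 changed by more than the summed macrophage list (3.6 and 3.13 against 1.67), Ccr2 by 2.08, and Cxcr2 (1.65) was near the neutrophil sum. These differences between genes and lists were not tested.

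Lymphocyte lists gave few calls. T cell markers summed to 8.7 to 12.6 CPM in controls and 8.85 to 12.6 in CCl4 livers, with 1 of 9 tested members called, Cd8b1 (1.11). Cd8b1 passed the filter on low counts through the CCl4 libraries alone. Its call dropped out when control replicate 1 or 2 or the second CCl4 library was left out (adjusted p 0.0714 to 0.0788) and in DESeq2 (0.155). Lck, the T cell marker with the highest mean CPM, was not called (0.49). The median of the list was -0.18, and 2 members, Cd3e (-0.81) and Cd4 (-0.69), were lower at an unadjusted p under 0.05 but not after adjustment (0.0559 and 0.096). Cd3e was called without CCl4 replicate 3 (-0.98, adjusted p = 0.0436). Of natural killer cell markers 0 of 4 tested were called by edgeR, DESeq2 or limma-voom, and 1 was lower at an unadjusted p under 0.05 in edgeR. Their sums were 6.27 to 7.23 and 5.54 to 7.03 CPM, and Gzma, the one with the highest mean CPM, had a log2 fold change of -0.36. B cell markers summed to 21.1 to 26.8 and 24.3 to 29 CPM, with 2 of 7 called higher, Cd22 (0.97) and, named after its value was seen, Cd79a (0.59, lost whichever library was left out, adjusted p 0.056 to 0.0894), while Ighm was not called (-0.24). Dendritic cell markers, a list that also holds Ccr7, summed to 22.7 to 25.7 and 37.2 to 39.5 CPM, with 5 of 9 higher in edgeR, Irf8 (1.23) having the smallest p, and 2 in DESeq2. Most of the gain in this sum was Irf8, at a mean of 7.87 CPM in controls and 18.5 in CCl4 livers.

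**Figure D3:**
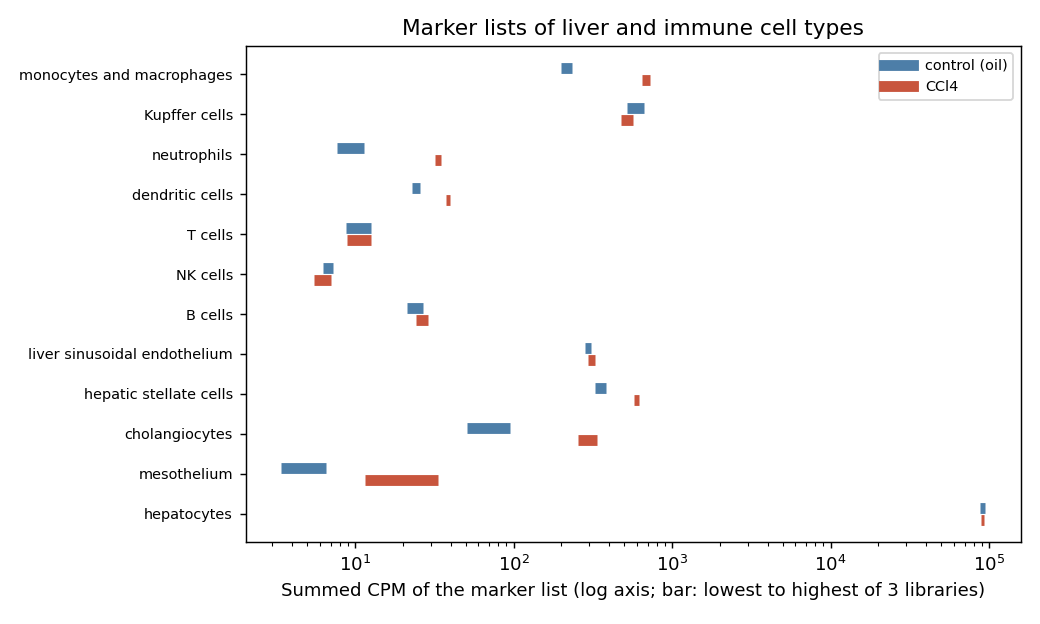
Summed CPM (log axis) of 12 cell type marker lists, with a bar from the lowest to the highest of the 3 libraries of each group. The macrophage, neutrophil, dendritic cell, stellate cell, cholangiocyte and mesothelium sums of the CCl4 libraries lie above those of the controls, and the T cell and natural killer cell bars overlap.

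Of the CCR2 ligands in the set only Ccl2 was tested, and it was not called, while the receptor gene Ccr2 was. Ccl2 (ENSMUSG00000035385), the main monocyte attractant, stood at 2.02, 0.702 and 0.795 CPM in control replicates 1, 2 and 3 and 1.36, 1.09 and 1.38 in CCl4 livers. All CCl4 libraries fell inside the control range, which control replicate 1 set at its upper end. The log2 fold change was 0.12 (95% interval -0.77 to 1, adjusted p = 0.837), and it ran from -0.15 to 0.76 with each library left out in turn, without a call. The related chemokine genes Ccl7 (16 counts in all controls together against 14 in all CCl4 livers), Ccl8 (13 against 12) and Ccl12 (2 against 6) were too low to be tested. Their ratios of CCl4 over control had exact 95% counting intervals of 0.367 to 1.78, 0.357 to 2.04 and 0.498 to 28.2, each including 1. Ccl2, Ccl7, Ccl12 and Ccl8 lie in this order in 1 run on chromosome 11, which also holds Ccl11 and Ccl1. Of these 4 members only Ccl2 was tested.

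A second run on chromosome 11 holds Ccl5, Ccl9, Ccl6, Ccl3 and Ccl4, among them ligands of CCR1, and here the members differed. Ccl6 (ENSMUSG00000018927), a macrophage chemokine found in rodents, stood at 6.76, 6.65 and 5.14 CPM in controls and 24.6, 23.8 and 17.2 in CCl4 livers. CCl4 replicate 3 was the lowest of its group and still far above every control. Ccl6 rose by 1.82 (SE 0.16, adjusted p = 6.6e-05), or 3.54-fold (interval 2.73 to 4.57). Ccl3 (ENSMUSG00000000982), also called MIP-1 alpha, went from 4, 7 and 5 counts to 20, 16 and 28 (1.87, SE 0.37, adjusted p = 0.00315). Ccl4 (ENSMUSG00000018930), MIP-1 beta, which lies next to Ccl3, was under the filter with 6, 3 and 2 counts in controls and 8, 12 and 14 in CCl4 livers. Its groups did not overlap either, and with no filter on low counts it was called higher (1.48, adjusted p = 0.0439).

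Ccl9 (ENSMUSG00000019122), another CCR1 ligand of macrophages, held rank 2 among the ligands per kb of exon in both groups. It stood at 86.5, 75.4 and 90.2 CPM in controls and 129, 132 and 87.7 in CCl4 livers. CCl4 replicates 1 and 2 were above every control, and CCl4 replicate 3 lay inside the control range. It was not called (0.47, SE 0.17, adjusted p = 0.0712). Without CCl4 replicate 3 it was called at 0.64 (adjusted p = 6.29e-05), as it was by DESeq2 (0.46, 0.00917), limma-voom (0.45, 0.0446), upper quartile scaling (0.56, 0.0396) and library size alone (0.61, 0.0172). Ccl5 (ENSMUSG00000035042), RANTES, a product of T cells and natural killer cells, stood at 2.04 ± 0.609 and 2.39 ± 0.362 CPM (0.22, interval -0.35 to 0.79, adjusted p = 0.521), with overlapping groups.

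The CXCR2 ligands CXCL1, CXCL2 and CXCL5, which attract neutrophils, gave 1 call among 3. Cxcl5 (ENSMUSG00000029371) had 3, 0 and 0 counts in controls and 18, 14 and 21 in CCl4 livers. All CCl4 libraries were above all controls. The summed counts gave a ratio of 16.4 after scaling, with an exact 95% counting interval of 5.31 to 82. The fitted log2 fold change of 3.88 (SE 0.69, adjusted p = 0.00172) rests on 3 control counts from 1 library, and it was 7.11 without control replicate 1, where no control count is left.

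Cxcl1 (ENSMUSG00000029380) varied more between libraries of a group than between the groups. It stood at 35.7, 12.3 and 6.15 CPM in control replicates 1, 2 and 3 and at 59.9, 41.8 and 7.61 in CCl4 replicates 1, 2 and 3. The highest control was 5.8 times the lowest, and the highest CCl4 library 7.87 times the lowest. The log2 fold change was 1.01 with an interval from -1.78 to 3.8 (adjusted p = 0.494), and no alternative called it (adjusted p 0.115 to 0.809). Cxcl2 (ENSMUSG00000058427), its neighbour on chromosome 5, was under the filter with 14, 4 and 6 counts in controls and 3, 7 and 8 in CCl4 livers. Control replicate 1 was the highest library for Cxcl2, and the ratio of summed counts was 0.696 (interval 0.356 to 1.34).

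The promoters of Cxcl1, Cxcl2, Cxcl9 and Cxcl10 are shown because these inflammatory chemokines are textbook targets of NF-kappaB and interferon signalling and stand among the ligands whose values are given here one by one. Each is the 250 bases before the RefSeq start on build GRCm38.p6, 5′ to 3′ on the gene's strand, at chr5:90890995-90891244 (plus strand, Cxcl1), chr5:90903649-90903898 (plus, Cxcl2), chr5:92328080-92328329 (minus, Cxcl9) and chr5:92348890-92349139 (minus, Cxcl10). Capitals mark matches on either strand to the NF-kappaB consensus, to the core of the interferon-stimulated response element (GAAA, any 2 bases, GAAA) or to the gamma-activated site (TTCNNNGAA).
Cxcl1: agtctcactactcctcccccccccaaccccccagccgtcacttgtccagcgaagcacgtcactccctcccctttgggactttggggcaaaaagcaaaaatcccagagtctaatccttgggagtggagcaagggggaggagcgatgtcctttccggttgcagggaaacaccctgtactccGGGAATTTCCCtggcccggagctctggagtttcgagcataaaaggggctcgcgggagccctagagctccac
Cxcl2: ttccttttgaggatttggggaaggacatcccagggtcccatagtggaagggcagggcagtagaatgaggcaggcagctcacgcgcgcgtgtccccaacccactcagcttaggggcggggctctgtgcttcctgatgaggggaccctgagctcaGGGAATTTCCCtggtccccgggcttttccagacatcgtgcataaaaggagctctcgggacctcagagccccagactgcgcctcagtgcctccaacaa
Cxcl9: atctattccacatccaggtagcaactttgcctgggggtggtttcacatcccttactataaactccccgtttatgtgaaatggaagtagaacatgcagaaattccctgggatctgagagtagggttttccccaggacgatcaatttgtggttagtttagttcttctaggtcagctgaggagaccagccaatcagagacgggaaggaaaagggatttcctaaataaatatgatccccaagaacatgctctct
Cxcl10: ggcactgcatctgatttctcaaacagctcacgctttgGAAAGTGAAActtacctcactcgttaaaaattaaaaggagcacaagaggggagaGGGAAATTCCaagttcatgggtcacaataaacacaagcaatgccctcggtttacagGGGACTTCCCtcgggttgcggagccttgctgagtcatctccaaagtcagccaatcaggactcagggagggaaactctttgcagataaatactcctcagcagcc
Cxcl1 and Cxcl2 carried the same letters in capitals, 2 overlapping NF-kappaB matches, which began 71 bases before the start in Cxcl1 and 97 before it in Cxcl2. Cxcl10 held 2 NF-kappaB matches, beginning 159 and 103 bases before the start, and 1 interferon-response match beginning at 213. The window of Cxcl9 held no match to these 3 motifs. The NF-kappaB consensus was found in 3.9% of 32851 promoter windows of this length and in those of 5 members, Ccl9, Ccl20, Cxcl1, Cxcl2 and Cxcl10. The interferon-response core was found in 2.98% of all windows and in 2 members, Cxcl10 and Cxcl14, and the gamma-activated site in 7.02% and in Ccl17 and Cxcl14. The AP-1 site (TGANTCA) was found in 6.75% and in Ccl9 and Cxcl10, and the PU.1 core (GAGGAA) in 23.3% and in 10 members. Promoter windows were at hand for 27 of the 36 members. A match is a run of letters and not a measured binding site.

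The CXCR3 ligands CXCL9, CXCL10 and CXCL11, induced by interferon-gamma and known for drawing in activated T cells, gave 1 call, and it was lower. Cxcl9 (ENSMUSG00000029417) stood at 13, 9.46 and 14.3 CPM in controls and 6.2, 7.07 and 7.12 in CCl4 livers. Every CCl4 library lay below every control. In log2 terms this was -0.85 (SE 0.15, adjusted p = 0.00194), 1.8-fold lower with an interval of 1.42 to 2.29, and it kept its direction and its call in all 14 alternatives (-1.01 to -0.7).

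Cxcl10 (ENSMUSG00000034855) stood at 7.72, 4.54 and 3.02 CPM in controls and 4.08, 3.61 and 3.73 in CCl4 livers. The CCl4 libraries agreed closely and fell inside the control range. It was not called (-0.42, interval -1.15 to 0.31, adjusted p = 0.326), and without control replicate 1 the value was 0.01, while without control replicate 3 it was -0.69 (adjusted p = 0.05, just under the threshold before rounding). Exons of Art3 lie across Cxcl10, of Gm2673 across Cxcl11 and of Gm20743 across Xcl1, each on the other strand. Cxcl11 (ENSMUSG00000060183), whose reading frame is broken in C57BL/6 mice, stood at 3.88 ± 0.789 and 3.46 ± 0.866 CPM (-0.17, interval -0.66 to 0.33, adjusted p = 0.576). That Cxcl9 was called and Cxcl10 and Cxcl11 were not does not show that they differ, and that difference was not tested.

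Cxcl12 (ENSMUSG00000061353), the CXCR4 ligand that stellate and endothelial cells of the liver make, had the highest level of the members in every library, also per kb of exon. It stood at 373, 464 and 397 CPM in controls and 398, 359 and 401 in CCl4 livers, with overlapping groups. The log2 fold change was -0.09 (SE 0.09, 95% interval -0.29 to 0.11, adjusted p = 0.439), an interval that leaves out the size of the rise in Cxcr4. With library size alone the value was 0.06, so its sign depended on the scaling. Cxcl12 made up 66.6, 76.6 and 72.9% of the summed ligand CPM (not per kb) in controls and 59.7, 59 and 70.4% in CCl4 livers. The sum over the 9 receptors went from 9.11 to 13.8 CPM in controls to 37.5 to 44.4 in CCl4 livers, while the ligand sum was 545 to 605 and 570 to 667 CPM.

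Cxcl13 (ENSMUSG00000023078), which draws B cells into follicles through CXCR5, had the lowest fitted log2 fold change of the members. Its counts were 41, 39 and 28 in controls and 5, 15 and 7 in CCl4 livers, or 2.18, 2.11 and 1.48 against 0.252, 0.742 and 0.344 CPM. Each CCl4 library was below each control, and CCl4 replicate 2 was the highest of its group. On the log2 scale this was -2.09 (SE 0.37, adjusted p = 0.00175), 4.26-fold lower with an interval of 2.39 to 7.61, and the call was kept in all 14 alternatives (-2.66 to -1.81). The summed B cell markers, given above, overlapped between the groups. Ighm was the largest part of that sum (mean 12.3 CPM in controls and 10.5 in CCl4 livers). The overlap therefore does not show that the other B cell markers were unchanged, and of the 7 markers 2 were called higher and 0 lower.

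The transmembrane chemokines CX3CL1 and CXCL16, which are cut from the cell surface by ADAM proteases, both rose. Cxcl16 (ENSMUSG00000018920) stood at 7.35, 9.51 and 6.89 CPM in controls and 18.6, 16.1 and 17.5 in CCl4 livers (1.14, SE 0.13, adjusted p = 1.39e-04). The groups lay far apart and the CCl4 libraries close together. Exons of Zmynd15 overlap it on the other strand, and that gene stood at 6.27 and 8.88 CPM and was called too (0.5, adjusted p = 0.017, 0.0744 without control replicate 1). The receptor gene for CXCL16, Cxcr6, above, was not called. Cx3cl1 (ENSMUSG00000031778), fractalkine, stood at 1.22, 0.919 and 0.848 CPM in controls and 2.47, 1.93 and 5.8 in CCl4 livers (1.76, SE 0.46, adjusted p = 0.0187). CCl4 replicate 3 stood far above the other CCl4 libraries, and without it the value was 1.14. The call of Cx3cl1 was lost without control replicate 2 (adjusted p = 0.066), without control replicate 3 (0.0729) and with no filter on low counts (0.0582). Cx3cl1 lies between Ccl22 and Ccl17 on chromosome 8, and both of these were near the detection limit.

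Cxcl14 (ENSMUSG00000021508), an epithelial chemokine whose receptor is debated, rose from 1.54, 1.35 and 1.48 CPM to 3.53, 2.82 and 2.11 (0.95, SE 0.24, adjusted p = 0.0101). The lowest CCl4 library, replicate 3, was above the highest control. Epithelial marker lists moved in the same libraries: cholangiocyte markers summed to 50.6 to 94.5 CPM in controls and 253 to 336 in CCl4 livers, with 4 of 6 tested members higher, among them Krt7 (2) and Spp1 (2.17), which macrophages also express. Spp1 made up most of this sum (58.3 of it in controls and 262 in CCl4 livers, mean CPM), and without it the list summed to 8.8 to 18.2 and 29.2 to 33.2 CPM. Mesothelium markers summed to 3.4 to 6.55 and 11.5 to 33.3 CPM, with Wt1 at 3.08 and Upk3b, without a call, at 1.57. Their part in the values of Cxcl14, Cxcl16, Cx3cl1 and Cxcl5 was not tested.

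The remaining CC ligands belong to lymphoid tissue, mucosa or eosinophil recruitment, and 2 of them fell. Ccl25 (ENSMUSG00000023235), the CCR9 ligand of thymus and gut, stood at 9.53, 10.3 and 7.79 CPM in controls and 5.85, 5.89 and 5.11 in CCl4 livers (-0.71, SE 0.13, adjusted p = 0.00235). No CCl4 library reached the lowest control. Its exons overlap those of Elavl1 on the other strand, and reads of the 2 genes cannot be told apart where the strand setting is not known. Elavl1 stood at 41.7 and 38.2 CPM and was not called (-0.13, adjusted p = 0.102, and 0.02 with library size alone). Ccl24 (ENSMUSG00000004814), eotaxin-2, a CCR3 ligand made by macrophages, went from 33, 26 and 38 counts to 20, 18 and 22 (-0.79, SE 0.24, adjusted p = 0.0262). The groups did not overlap, but Ccl24 was no longer called when control replicate 1 or 3, or CCl4 replicate 1 or 2, was left out (adjusted p 0.0668 to 0.0943), with library size alone (0.0586) and in DESeq2 (0.129). Markers of Kupffer cells, the resident macrophages, moved both ways beside it. Of 8, Cd5l (1.23) and Vsig4 (0.91) were higher, and C6 (-1.54), Timd4 (-0.97) and Cd163 (-0.87) lower. The 8 summed to 521 to 666 CPM in controls and 476 to 566 in CCl4 livers. Much of this sum was C6 (mean 310 CPM in controls, 107 in CCl4 livers) and Cd5l (99.1 and 232), which moved in opposite directions. The overlap of the sums therefore does not show that the list was unchanged.

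Ccl21a (ENSMUSG00000094686), the CCR7 ligand of lymphatic vessels and lymph node stroma, had 40, 13 and 8 counts in controls and 68, 24 and 34 in CCl4 livers. Control replicate 1 exceeded CCl4 replicates 2 and 3. It was not called (0.94, interval -0.61 to 2.49, adjusted p = 0.291), but it was without control replicate 1 (1.88, adjusted p = 0.0386). Mouse genomes hold near-identical copies of this gene, and with the counting of reads that match several copies not known, its value is uncertain. Ccl17 and Ccl22, the CCR4 ligands of dendritic cells, had 3 and 8 counts over all controls and 4 and 11 over all CCl4 livers. Ccl20, the CCR6 ligand of epithelia, had 0 counts in all controls and 0, 2 and 2 in CCl4 livers, all at or under the floor of 3 counts per library. Xcl1, lymphotactin, which attracts cross-presenting dendritic cells through XCR1, had 1, 0 and 5 counts in controls and 6, 6 and 6 in CCl4 livers, a ratio of 2.78 with an interval of 1.06 to 8.57 for counting error alone.

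**Figure D4:**
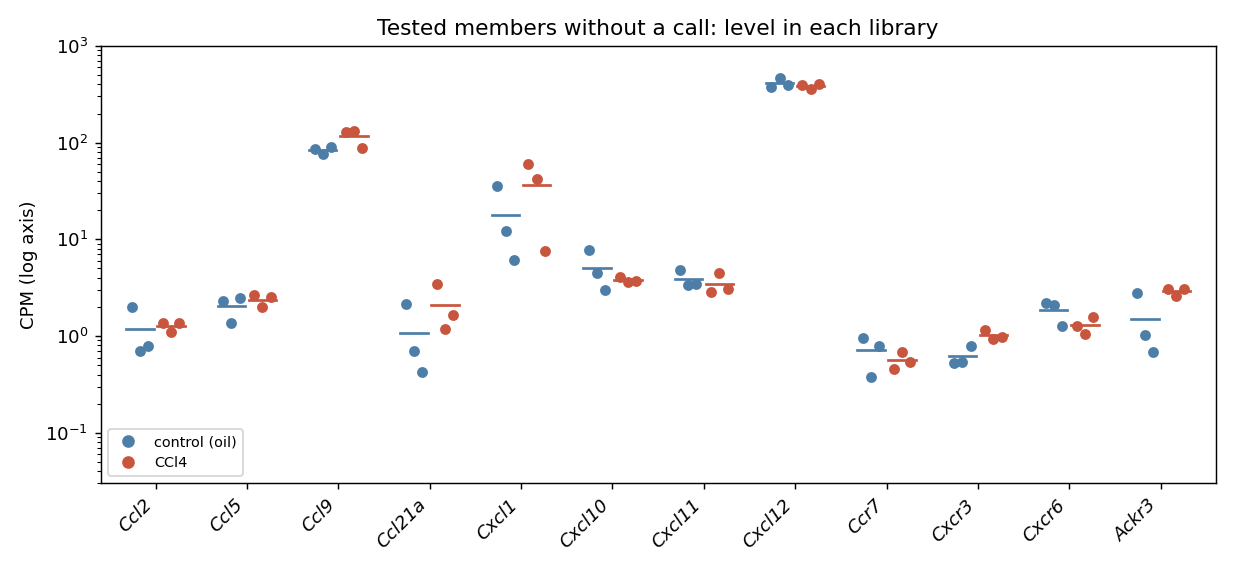
CPM on a log axis in each library for the 12 tested members without a call, with points for libraries and lines for group means (n = 3). Control replicate 1, the leftmost blue point of each gene, is the highest control for Ccl2, Ccl21a, Cxcl1, Cxcl10, Cxcl11, Ccr7, Cxcr6 and Ackr3, and CCl4 replicate 3, the rightmost red point, is the lowest of its group for Ccl9 and Cxcl1.

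Several values above turn on control replicate 1. It held the highest control level of 23 of the 36 members, against 5 for control replicate 2 and 7 for control replicate 3. Over all genes tested it was the highest control for 31%, and the other 2 for 34.6 and 34.4%. The 23 members share libraries and are not independent. The highest control was 11.1 times the lowest for Ccl7, 5.02 times for Ccl21a, 4.02 times for Ackr3, 2.88 times for Ccl2 and 2.56 times for Cxcl10. In CCl4 livers the same ratios were 2.29, 2.88, 1.18, 1.27 and 1.13. Without this library 14 members were called higher and 3 lower. What set it apart was not tested, and the labels give no batch or date.

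Levels of different genes were compared per kilobase of annotated exons (CPM per kb). In controls the ligands ran from Cxcl12 (50.3) and Ccl9 (27.6) through Cxcl1 (9.63), Cxcl9 (4.06), Ccl6 (3.44) and Cxcl16 (2.62) down to Cxcl5 (0.0286) and Ccl20, which had no count. Library ranges overlapped for the neighbours Cxcl1 and Cxcl9, Cxcl9 and Ccl6, and Ccl6 and Cxcl16, but not for Cxcl12 and Ccl9. In CCl4 livers Cxcl12 (47.2) and Ccl9 (38.2) were still first, with ranges of 43.9 to 49 and 28.8 to 43.3, Ccl6 (12.2) held rank 4 and Cxcl9 (2.25) rank 8. The order of the receptors differed more. In controls Cxcr6 (0.96, range 0.658 to 1.13) was first, clear of Ccr2 (0.537, 0.478 to 0.623) but not of Ackr3 (0.447, 0.206 to 0.827), and Cxcr4 (0.432) overlapped both of the latter, and Ccr1 (0.113) was last. In CCl4 livers Cx3cr1 (2.4), Ccr2 (2.28) and Cxcr4 (2.21) were first with overlapping ranges of 1.86 to 3.31, 2.22 to 2.32 and 2.05 to 2.36, followed by Ccr1 (1.01), whose range did not overlap theirs, while Cxcr6 (0.668) held rank 6.

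Genes of the wider chemokine system were taken from lists of other ligands, other receptors, signalling proteins and processing enzymes. Of 12 other ligands 3 were tested and 1 was called, Pf4, a platelet and megakaryocyte chemokine, at 1.6, 0.594 and 0.583 CPM in controls and 2.57, 3.07 and 2.36 in CCl4 livers (1.52, SE 0.36, adjusted p = 0.00785). Of 15 other receptors 10 were tested and 4 were higher (40%, against 21.2% of all genes, median 0.44), but DESeq2 called 1. Ccr3 and Pitpnm3, 2 of the 4, passed the filter on low counts through the CCl4 libraries alone, so this share supports nothing by itself. Ccr3, the eotaxin receptor of eosinophils, rose from 11 to 40 summed counts (1.72, adjusted p = 0.00769), with 0.0695 in DESeq2. Pitpnm3, a proposed CCL18 receptor, was called at 1.46 (adjusted p = 0.0285), and this call was lost without any 1 control replicate or without CCl4 replicate 3 (0.92 without the latter, adjusted p 0.0547 to 0.104). Ccrl2, an atypical receptor that presents chemerin, was called at 0.57 (adjusted p = 0.0431), and was not called when control replicate 1 or 3, or CCl4 replicate 1 or 2, was left out (adjusted p 0.0759 to 0.136).

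Downstream of the receptors, edgeR called 20 of 27 tested signalling genes higher (74.1%) and 1 lower (3.7%), with a median of 0.75. Over all genes tested 21.2% were higher and 20.1% lower. Vav1, an exchange factor of haematopoietic cells, rose by 1.25 (SE 0.13, adjusted p = 7.79e-05), Rac2, a small GTPase of leukocytes, by 0.88 (adjusted p = 1.05e-04) and Rgs2, which shortens G protein signals, by 1.11 (adjusted p = 1.31e-04). Gnai3, a widely expressed inhibitory G protein subunit, was the lower one (-0.2, adjusted p = 0.0122), with no call with upper quartile scaling (-0.11) or library size alone (-0.05). Several of these genes are themselves leukocyte genes, and the macrophage and neutrophil sums given above were higher in the same libraries. Their part in these values was not tested. Of 9 tested sheddases and processing enzymes 8 were higher and 1 lower (median 1). Adam10 (0.36, adjusted p = 6.45e-04) and Adam17 (0.31, adjusted p = 0.00283), the proteases that release CX3CL1 and CXCL16, rose, and so did Rhbdf2, which helps ADAM17 mature (0.66, adjusted p = 2.18e-04). Dpp4, which clips the ends of CXCL9, CXCL10, CXCL11 and CXCL12, fell from 179 ± 9.11 to 121 ± 2.64 CPM (-0.56, SE 0.06, adjusted p = 8.44e-05).

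Genes of the pathways that induce inflammatory chemokines were called in both directions. On the interferon-gamma list, 3 of 13 tested genes were higher and 1 was lower (median -0.06). These were 23.1% and 7.69% of the list, against 21.2% and 20.1% of all genes. The receptor chains Ifngr1 (0.61) and Ifngr2 (0.46) and the MHC class II regulator Ciita (1.15) rose, and Gbp7, an interferon-induced GTPase, fell (-0.78). Ifng itself had 2 counts over all controls and 2 over all CCl4 livers and was not tested. On the NF-kappaB list, 6 of 17 tested genes were higher and 3 were lower (median 0.14), or 35.3% and 17.6%. The lower ones were Chuk (-0.74, adjusted p = 2.23e-05) and Ikbkg (-0.56), subunits of the kinase that frees NF-kappaB, and Nfkbia, its inhibitor and target (-0.22). Nfkbia lost its call in 5 of 14 alternatives, among them library size alone (-0.07) and DESeq2 (-0.23, adjusted p = 0.0651). The higher ones were Relb, a subunit of the non-canonical pathway (0.97), Tnfaip3 (1), Ltb (0.96), Map3k14 (0.87), Nfkbie (0.74) and Tnfrsf1a (0.37).

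Other cell types of the liver that make ligands were also measured by their markers. Stellate cell markers summed to 328 to 380 CPM in controls and 571 to 619 in CCl4 livers, with 5 of 8 higher and 1 lower, Dcn at 0.63 and Ecm1 at -1.18. Most of the gain in this sum was Col1a1, a collagen chain (11.6 to 165 CPM, 3.83), and without it the sum was 317 to 368 and 387 to 469 CPM, a log2 ratio of 0.28. Sinusoidal endothelial markers summed to 282 to 308 and 296 to 326 CPM, with Stab1 higher (0.5) and Kdr lower (-0.18) among 8, the latter losing its call in 8 of 14 alternatives, namely upper quartile scaling, library size alone, the stricter filter, DESeq2 and 4 of the fits that leave out 1 library (control replicates 1 and 2, CCl4 replicates 2 and 3, adjusted p 0.09 to 0.116). Stab2, a scavenger receptor of these cells, was not called and changed sign with the scaling (-0.07, 0.02 with upper quartile scaling and 0.08 with library size alone). Hepatocyte markers summed to 87200 to 94600 and 89300 to 92800 CPM, with 1 of 8 higher and 4 lower, Fah (-0.25) having the smallest p and losing its call with library size alone (-0.11, adjusted p = 0.183). DESeq2 called 6 of them lower and limma-voom 5. Alb made up most of this sum (71800 of it in controls and 74000 in CCl4 livers, mean CPM), so the sum mainly reads Alb. The part of stellate and endothelial cells in the level of Cxcl12 was not tested.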

How the data were processed

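RNA of 6 liver libraries was sequenced, 3 from oil controls and 3 after CCl4. Per the labels' protocols, libraries were made with a SMARTER kit from total RNA, and per the submitters' processing notes, HISAT2 aligned and featureCounts counted the reads. Per the series' design text, adapters and low-quality reads were removed first. Tool versions, genome build, annotation, strand setting and the handling of reads with several matches: not given in the sources used here.

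The deposited values are the authors' raw counts per gene, whole numbers. Of 55802 rows, 55359 had Ensembl identifiers and 443 others, and symbols came from GENCODE M21 by identifier (52083 matched). The test on these counts was edgeR's quasi-likelihood test, version 4.0.16 under R 4.3.3 (filterByExpr, TMM scaling, robust glmQLFit and glmQLFTest, Benjamini-Hochberg adjustment over all 15579 genes tested, threshold 0.05), and every adjusted p is from this test unless another tool is named. The common coefficient of variation between libraries of a group, beyond counting error, was 10.6% in edgeR, and it may be partly technical. CPM values use library sizes scaled by TMM. Each SE is the absolute log2 fold change divided by the root of F, and intervals cover 95%. The fit was tested on simulated data. Alternatives were other scalings, no filter or a stricter one (at least 10 counts in each of 3 libraries, with mean CPM of 1 or more), DESeq2 1.42.0, limma-voom (limma 3.58.1), the replicate number as a block, and fits leaving out 1 library each.

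Members and gene lists were chosen with earlier results of these data known. All members are named, every called gene of the other ligand and receptor lists but 1, which is not reported here, the 3 called genes of smallest p of each other pathway list, and of each marker list the called gene of smallest p and that of highest mean. Named after their values were seen were Adam17, Cd79a, Gbp7, Gnai3, Ifng, Kdr, Nfkbia, Ly6g, Cd3e, Cd4, Col1a1, Vsig4, Timd4, Cd163 and the genes lying across a member on the other strand (Elavl1, Zmynd15, Art3, Gm2673, Gm20743, Gm33858). So were Retnlg, Mmp8, Ltf, Tnfaip3, Ltb, Map3k14, Nfkbie and Tnfrsf1a. Marker sums without Spp1 or Col1a1 were added after seeing the data. Promoter windows came from RefSeq (GRCm38.p6) and were searched on both strands. No molecular identifiers are mentioned, so counting intervals and floors cover counting error only.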

Additional observations from a re-analysis of the deposited data

How the results depend on the processing

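Over the other scalings, filters, tools and the replicate block, 5324 to 6695 genes were called, 9 to 13 members higher and 3 or 4 lower, all within 1.5 times the reported counts. Leaving out 1 library gave 5229 to 6408, 10 to 14 and 3 to 4. For the 27 tested members, 347 of 374 alternative values kept their direction and side of the threshold, 9 lost and 12 gained a call, and 6 changed sign, none of the 6 with a call. Those 6 were Ccl2 without control replicate 2 (-0.15) and without control replicate 3 (-0.1), Ccl5 without control replicate 2 (-0.01), Cxcl10 (0.01) and Cxcl11 (0.01) without control replicate 1, and Cxcl12 with library size alone (0.06). Leaving out 1 library gave -0.15 to 0.76 for Ccl2, -0.01 to 0.38 for Ccl5, -0.69 to 0.01 for Cxcl10 and -0.39 to 0.01 for Cxcl11. Of 738 values of 53 of the other named genes, 680 kept direction and call, and 3 changed sign, those of Stab2 (0.02 with upper quartile scaling, 0.08 with library size alone) and Elavl1 (0.02 with library size alone). The causes were not tested.

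By the limit of 0.1 set for every pair, equal replicate numbers were not taken to pair the libraries: deviations of same-numbered libraries correlated at 0.0617, 0.019 and 0.091, none over 0.1. Each CCl4 library correlated best with the control of its own number, as controls 1 and 3 did with theirs, and control replicate 2 correlated best with CCl4 replicate 1. With the replicate block, 6416 genes were called, with 12 members higher and 4 lower. The gained member was Ccl21a (1.02, adjusted p = 0.0259), and among other named genes Ccrl2 (0.58, adjusted p = 0.0669) and Cd79a (0.59, adjusted p = 0.0573) lost their calls, and Cd4 gained one (-0.69, adjusted p = 0.0477). Depth limits the 9 untested members, whose group sums were 34 counts or fewer.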
